A study of Homo sapiens with 9 samples.

Results

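The 10 genes described here encode ligands that natural killer (NK) cells and T cells read on the surface of a target cell: MICA, MICB, ULBP1, ULBP2, ULBP3, PVR, NECTIN2, CD48, CD58 and LGALS9. They were matched by gene symbol in the authors' deposited table, and all 10 were found once among the 60605 genes of the deposited files and passed the filter on low counts, which kept 20655 genes. RNA sequencing of total RNA compared 3 groups of 3 libraries from KG-1a, a human acute myeloid leukaemia cell line. One group had intact PRMT2 (WT), and the others were knockout clones 1 and 2, in which PRMT2 was targeted with CRISPR/Cas9. Each knockout group is 1 clone, and no group received a drug. PRMT2 encodes a protein arginine methyltransferase. The labels do not say whether WT cells were cloned or whether the replicates were separate cultures, so the p-values cover only the spread among these libraries, which may be technical. RNA was measured and not protein at the cell surface, and in a bulk sample fewer cells that express a gene and less RNA per cell cannot be told apart.

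NK cells weigh activating against inhibitory signals before they kill. MICA, MICB and the ULBP proteins are MHC class I-like molecules that cells display under stress, and their receptor NKG2D activates NK cells and supports T cells. PVR (CD155) and NECTIN2 (CD112) are adhesion molecules read by the activating receptor DNAM-1 (CD226) and by the inhibitory receptor TIGIT. CD96 also binds PVR, and PVRIG binds NECTIN2. CD48 is bound by 2B4 (CD244) on NK cells, CD58 is bound by CD2 on T and NK cells and strengthens their contact with a target, and galectin-9, the product of LGALS9, binds the checkpoint receptor TIM-3 (HAVCR2). Myeloid leukaemia cells carry many of these ligands.

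Counted read pairs per library were between 28006342 and 43149410, which were 25.9% to 29.6% of all pairs. Expression is given as CPM, which relates a gene's counts to the scaled library total, and 3 counts correspond to 0.0701 to 0.110 CPM in a library. KO clone 1 replicate 1 stood apart, with 13.3% of its pairs at several places in the genome against 3.86% to 4.51% in the other 8 libraries. Without it, the number of ligands that passed in each direction was the same in every comparison. PRMT2 RNA was 39.4 ± 0.393 CPM in WT (SD, n = 3) and was 52.6% of that level in clone 1 and 53.9% in clone 2. KG-1a markers were summed at 2121 to 2215 CPM over all libraries, with CD34 at 626, 735 and 765 CPM in WT, clone 1 and clone 2. The sum does not show KIT, which was at 6.16, 6.95 and 20.0 CPM in these groups and so was higher in clone 2. CD33, FLT3 and MPO were under 1 CPM in every library.

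CD48 and ULBP1 fell in both knockout clones, with fitted changes past the fold minimum of the study, an absolute log2 fold change of 1. For ULBP1 in clone 2 this was uncertain. Its 95% interval there was -1.78 to -0.38, and the call was lost under some alternatives. ULBP3 also fell in both clones and NECTIN2 rose in both, by less than that minimum. PVR fell in clone 1 and rose in clone 2. MICA, ULBP2 and CD58 did not pass the test in either clone. At an adjusted p under 0.05 in edgeR's quasi-likelihood test, adjusted over all 20655 genes, 6 of 10 ligands passed in clone 1, where 36.2% of all genes passed. Of these 6, 1 was higher (17.4% of all genes) and 5 were lower (18.8%). In clone 2 again 6 passed, against 30.5% of all genes, with 2 higher (14.4%) and 4 lower (16.1%). For the mean of both clones 6 passed, against 35.3%, with 1 higher (16.4%) and 5 lower (18.9%). With the fold minimum added, 2 ligands passed in each of these comparisons, CD48 and ULBP1, both lower, beside 7.58% of all genes in clone 1 (2.6% higher and 4.98% lower), 5.96% in clone 2 (1.83% and 4.13%) and 6.53% for the mean of both (2.0% and 4.53%).

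Of the 10 ligands, 4 passed in both clones in the same direction, which 19.6% of all genes did. PVR was the only one to pass in opposite directions, as 1.35% of all genes did. The 6 knockout libraries lay wholly above the 3 WT libraries for NECTIN2 (11.2% of all genes) and wholly below them for CD48, ULBP1 and ULBP3 (13.7% of all genes), and they overlapped WT for the other 6 ligands. Either direction together held for 24.9% of all genes. The median log2 fold change of the 10 ligands was -0.14 for the mean of both clones, where that of all genes was 0.0019. Their median absolute log2 fold change was 0.27 against 0.155 for all genes. Both comparisons with WT share its 3 libraries.

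**Figure D1:**
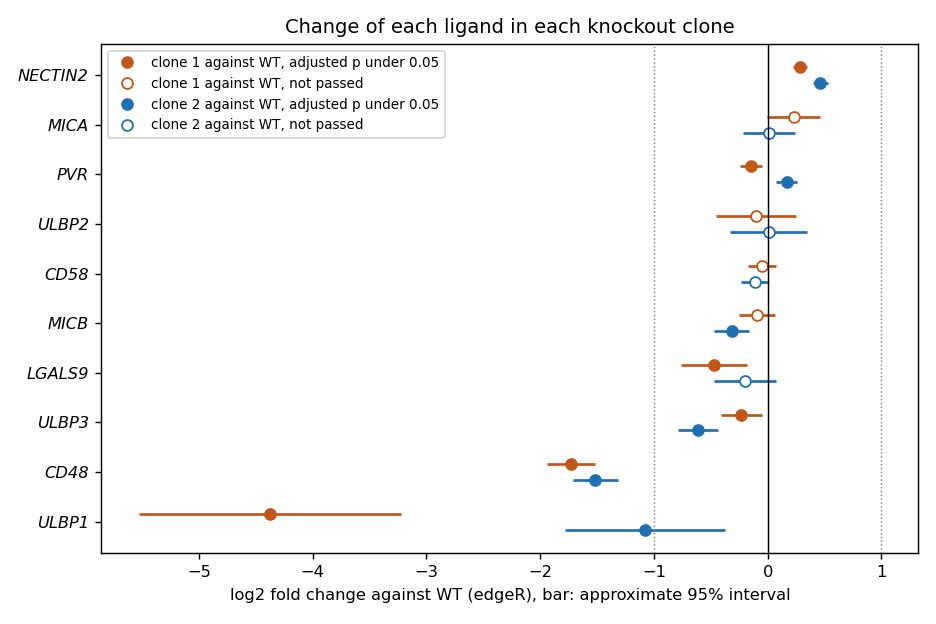
Log2 fold change of each of the 10 ligands against WT in clone 1 and clone 2 (horizontal axis), from edgeR with approximate 95% intervals as bars. Filled points passed an adjusted p under 0.05 and dotted lines mark the fold minimum of 1. The fitted values of CD48 and ULBP1 lie past it in both clones, but the ULBP1 bar in clone 2 crosses it.

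ULBP1, a ligand of NKG2D that is held to the membrane by a lipid anchor, was almost lost in clone 1. It lies on chromosome 6 at 149963943 to 149973715 (GRCh38, plus strand). Its level was 0.730, 1.29 and 0.863 CPM in WT replicates 1 to 3, and 0, 0.0931 and 0.0307 CPM in clone 1. In clone 2 it was 0.412, 0.694 and 0.281 CPM. All clone 1 libraries lay below all clone 2 libraries, which lay below all WT libraries. These levels rest on 28, 53 and 28 read pairs in WT, on 0, 3 and 1 in clone 1 and on 17, 26 and 12 in clone 2. The summed level in WT was 22.5 times that in clone 1 (95% counting interval 8.52 to 83.9) and 2.15 times that in clone 2 (1.54 to 3.04), and these intervals cover counting error only. Fitted log2 fold changes were -4.38 in clone 1 (SE 0.571, adjusted p = 3.13e-08 in edgeR), which depends on how edgeR treats counts near 0, and -1.08 in clone 2 (SE 0.348, adjusted p = 0.0147). The call in clone 2 was lost without WT replicate 2 (adjusted p = 0.165), clone 2 replicate 1 (0.0505) or clone 2 replicate 3 (0.110), and in DESeq2 (0.0913). In clone 1 every alternative in which ULBP1 was tested kept the call, with an adjusted p of at most 2.35e-06, but the fitted log2 fold change was -3.90 without clone 1 replicate 1 and -5.60 without clone 1 replicate 2.

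ULBP3, a related ligand of NKG2D on the minus strand of chromosome 6 (150061053 to 150069121), fell in both clones and further in clone 2. WT libraries held 12.7, 12.0 and 11.6 CPM. Clone 1 held 10.7, 9.93 and 10.4 CPM, and clone 2 held 8.85, 7.47 and 7.41 CPM. The 3 groups did not overlap. Clone 1 was at 85.3% and clone 2 at 65.4% of the WT mean. In edgeR clone 1 had a log2 fold change of -0.23 (SE 0.088, adjusted p = 0.0365) and clone 2 one of -0.61 (SE 0.088, adjusted p = 3.25e-07). The fall in clone 2 kept its call under every alternative, whereas that in clone 1 lost it in DESeq2 (adjusted p = 0.0922), without the filter on low counts (0.0523), and without WT replicate 1 (0.143), WT replicate 2 (0.0705), clone 1 replicate 2 (0.127) or clone 1 replicate 3 (0.0778).

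The promoters of ULBP1 and ULBP3 are shown because RNA of both genes fell in both clones. Each sequence is the 250 bases before the RefSeq start of the gene (GRCh38.p14), 5′ to 3′ on the gene's own strand, with capitals at matches to the SP1 box GGGCGG on either strand. ULBP1 (chr6:149963693-149963942, plus strand) has a GC content of 61.6% and 20 CpG, and ULBP3 (chr6:150069122-150069371, minus strand) has 72.0% and 22 CpG.
ULBP1 promoter: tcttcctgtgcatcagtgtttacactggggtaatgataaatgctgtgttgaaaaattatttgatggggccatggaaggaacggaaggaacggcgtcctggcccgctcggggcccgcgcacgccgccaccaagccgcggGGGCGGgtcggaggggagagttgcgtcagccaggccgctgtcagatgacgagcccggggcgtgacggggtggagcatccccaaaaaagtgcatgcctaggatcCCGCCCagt
ULBP3 promoter: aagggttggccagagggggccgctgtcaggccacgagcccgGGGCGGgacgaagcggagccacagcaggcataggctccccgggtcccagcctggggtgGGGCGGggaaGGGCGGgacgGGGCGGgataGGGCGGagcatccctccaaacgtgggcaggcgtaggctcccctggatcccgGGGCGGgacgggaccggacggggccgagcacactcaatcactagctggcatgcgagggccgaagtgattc
Both hold the SP1 box, as do 7 of the 10 ligands and 42.6% of 35116 promoters of the same length. The median promoter has a GC content of 58.0% and 11 CpG.

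MICB, an NKG2D ligand on chromosome 6 (31494881 to 31511124, plus strand), fell in clone 2. It measured 14.9, 17.1 and 15.8 CPM in WT, 14.02, 15.40 and 15.37 CPM in clone 1 and 13.9, 12.7 and 12.0 CPM in clone 2. Clone 1 overlapped WT and clone 2 did not. In clone 2 MICB fell by 0.31 on the log2 scale (SE 0.076, adjusted p = 0.00119 in edgeR), while the log2 fold change in clone 1 was -0.09 (SE 0.077, adjusted p = 0.389). For the mean of both clones it was -0.20 (adjusted p = 0.0136), which did not pass without WT replicate 2 (adjusted p = 0.151) or with the 6 knockout libraries as 1 group (0.128).

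MICA, the neighbouring and closely related gene (chromosome 6, 31399784 to 31415315, plus strand), did not pass in any comparison. It was at 4.83, 5.22 and 5.21 CPM in WT, 5.34, 6.15 and 6.32 CPM in clone 1 and 5.09, 5.15 and 5.14 CPM in clone 2. All clone 1 libraries were above WT, and clone 2 lay within the range of WT. The log2 fold change in clone 1 was 0.23 (95% interval -0.002 to 0.458, adjusted p = 0.119 in edgeR) and in clone 2 it was 0.01 (-0.21 to 0.24).

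ULBP2, encoded beside ULBP1 (chromosome 6, 149942014 to 149949235, plus strand), also did not pass. WT libraries held 2.400, 2.243 and 2.496 CPM, clone 1 libraries 2.45, 2.17 and 2.03 CPM, and clone 2 libraries 2.93, 1.92 and 2.29 CPM. All 3 groups overlapped. The 95% interval of the log2 fold change was -0.46 to 0.25 in clone 1 and -0.33 to 0.34 in clone 2. Of the 150-base stretches of ULBP2 transcripts, 4.30% also occur in RAET1L, a related gene, so some of its reads could be shared.

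A heat shock element, searched as GAANNTTC on both strands, occurred before the start of MICA, MICB and CD48 among the 10 ligands and in 5.78% of all promoters. Heat shock factor is a known activator of MICA and MICB, which is why these sites are shown. Each line gives 28 bases with the match in capitals, on the gene's strand, from RefSeq.
MICA: cagcccactgGAATTTTCtcttccaagc
MICB: caggccgctaGAATTTTCtcttctgaac
CD48: tagaagctatGAATCTTCcccctacaaa
The match starts at base 135 before the RefSeq start in MICA, at base 139 in MICB and at base 208 in CD48. GENCODE, whose models start further upstream, places the MICA and MICB windows inside these genes. HSF1, the factor itself, did not pass for the mean of both clones (log2 fold change 0.05, adjusted p = 0.235 in edgeR) but rose by 0.10 in clone 2 (adjusted p = 0.0284) and was higher in clone 2 than in clone 1 (0.10, adjusted p = 0.0339).

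Summed per kilobase of exon, RNA of the 5 NKG2D ligands was 13.0 ± 0.386 CPM per kb in WT, 11.9 ± 0.183 in clone 1 and 10.4 ± 0.921 in clone 2 (SD, n = 3 each). The 3 groups did not overlap in this sum. MICB made up the largest share, 43.8% in WT, 44.9% in clone 1 and 44.2% in clone 2. ULBP3 came next, with 29.98%, 27.96% and 24.46%. ULBP1, the member with the largest fold change, supplied 2.30% of the sum in WT, 0.107% in clone 1 and 1.40% in clone 2. Of the 3 other NKG2D ligands listed (RAET1E, RAET1G and RAET1L), only RAET1E passed the filter on low counts, and it fell by 0.70 on the log2 scale for the mean of both clones (SE 0.261, adjusted p = 0.0341 in edgeR). RAET1E passed in clone 2 (log2 fold change -0.95, adjusted p = 0.0157) and did not pass in clone 1 (-0.44, adjusted p = 0.289).

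**Figure D2:**
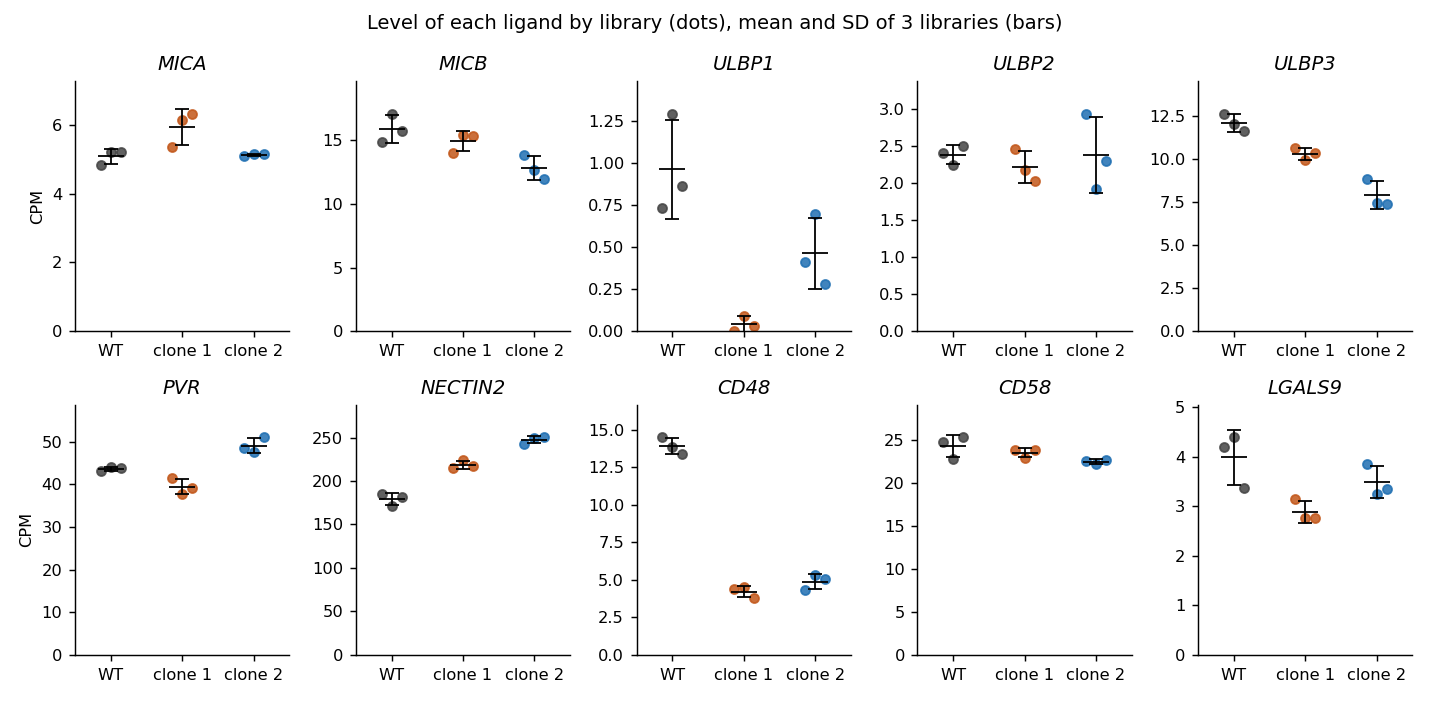
Level of each ligand in CPM (vertical axes, each from 0) in the 3 libraries of WT, clone 1 and clone 2, with the mean and SD as bars. For ULBP1 in clone 1 the lower end of the SD bar lies under 0 and is not drawn. CD48, ULBP1 and ULBP3 lie below WT in all 6 knockout libraries and NECTIN2 lies above WT in all 6.

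NECTIN2 rose in both clones and was the only ligand to do so. It lies on chromosome 19 (44846175 to 44889223, plus strand). It measured 185.5, 171.6 and 181.5 CPM in WT, 215.1, 224.1 and 216.7 CPM in clone 1 and 243.1, 249.2 and 250.2 CPM in clone 2. The groups formed 3 separate steps. Clone 1 reached 121.8% and clone 2 137.9% of the WT mean, with log2 fold changes of 0.28 (SE 0.032, adjusted p = 9.64e-10 in edgeR) and 0.46 (SE 0.032, adjusted p = 9.76e-16). Both calls held under every alternative, with an adjusted p of at most 8.7e-08 in clone 1 and 1.09e-11 in clone 2.

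PVR, which shares the receptors DNAM-1 and TIGIT with NECTIN2 and lies nearby (chromosome 19, 44643798 to 44666162, plus strand), moved in opposite directions in the clones. WT libraries held 43.12, 43.97 and 43.88 CPM. Clone 1 libraries held 41.4, 37.8 and 39.2 CPM and were all lower, and clone 2 libraries held 48.6, 47.6 and 51.0 CPM and were all higher. In clone 1 its log2 fold change was -0.15 (SE 0.047, adjusted p = 0.0111 in edgeR), and in clone 2 it was 0.17 (SE 0.045, adjusted p = 0.00299). For the mean of both clones the log2 fold change was 0.01 (95% interval -0.07 to 0.09). The call in clone 1 was lost without clone 1 replicate 2 (adjusted p = 0.0874). A gene model awaiting experimental support (type TEC) on the same strand holds 16% of the 150-base stretches of PVR transcripts. It overlaps 2028 of the 10427 exonic bases of PVR and had 0 counts in all libraries. Whether read pairs in the shared bases were left uncounted for both genes was not tested. Levels of PVR per kilobase of exon use all 10427 bases and could be too low for that reason.

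CD48, the ligand of 2B4 and a lipid-anchored member of the SLAM family, fell in both clones and had the smallest adjusted p of the 10 ligands. Its gene lies on chromosome 1 (160678746 to 160711831, minus strand). It measured 14.5, 13.9 and 13.4 CPM in WT, 4.36, 4.50 and 3.77 CPM in clone 1 and 4.29, 5.31 and 5.05 CPM in clone 2. The lowest WT library was above all 6 knockout libraries, and the clones overlapped. Clone 1 retained 30.3% and clone 2 35.1% of the WT mean. The log2 fold change was -1.73 in clone 1 (95% interval -1.94 to -1.52, adjusted p = 1.11e-17 in edgeR) and -1.51 in clone 2 (-1.71 to -1.31, adjusted p = 1.62e-16). Clone 2 differed from clone 1 by 0.21 (-0.02 to 0.44, adjusted p = 0.178). Every alternative kept CD48 past both thresholds in both clones, with log2 fold changes of -1.89 to -1.65 in clone 1 and -1.57 to -1.43 in clone 2.

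The CD48 promoter is shown because this gene had the most certain fall. It covers chr1:160711823-160712072 (GRCh38.p14, minus strand), the 250 bases before the RefSeq start, with the heat shock element in capitals. Its last 9 bases lie inside the GENCODE gene.
CD48 promoter: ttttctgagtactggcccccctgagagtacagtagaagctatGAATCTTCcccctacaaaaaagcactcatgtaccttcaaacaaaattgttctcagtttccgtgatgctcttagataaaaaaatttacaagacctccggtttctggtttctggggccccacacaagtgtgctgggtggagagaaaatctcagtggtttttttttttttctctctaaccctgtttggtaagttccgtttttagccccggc
It holds 4 CpG at a GC content of 43.2%, and 38.1% of all promoters hold 5 or fewer CpG. LGALS9 holds 1 CpG, and the other 8 ligands hold 17 to 31. By GENCODE, all 250 bases of the LGALS9 window lie inside that gene. So do 112 bases of the PVR window, 122 of the NECTIN2 window and 13 of the CD58 window. None of the 10 ligand promoters matched the cyclic AMP response element TGACGTCA (1.65% of all promoters), the CEBP-ATF element TGATGNAA (3.14%), the NF-kB site (1.73%), the ETS site CCGGAAGT (3.42%) or the RUNX site TGTGGTT (3.65%), each searched on both strands.

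The count of CD48 depended on strand. Counted by strand it had 119 to 569 read pairs per library, but with strand ignored, as in the authors' deposited table, it kept 31.9% to 42.1% of them. For the other ligands without ULBP1 this share was 91.5% to 119.9%. A long noncoding RNA on the opposite strand (ENSG00000228863) overlaps 976 of the 3254 exonic bases of CD48. That RNA itself had 22, 11 and 12 pairs in WT, 3, 5 and 5 in clone 1 and 14, 5 and 3 in clone 2. Ignoring strand lowered the level of CD48 to 5.69 CPM in WT, 1.53 in clone 1 and 2.042 in clone 2, and the range of log2 fold changes given above includes this counting. The authors' deposited table gives CD48 a log2 fold change of -1.65 with an adjusted p of 1.332e-19 for both clones against WT.

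**Figure D3:**
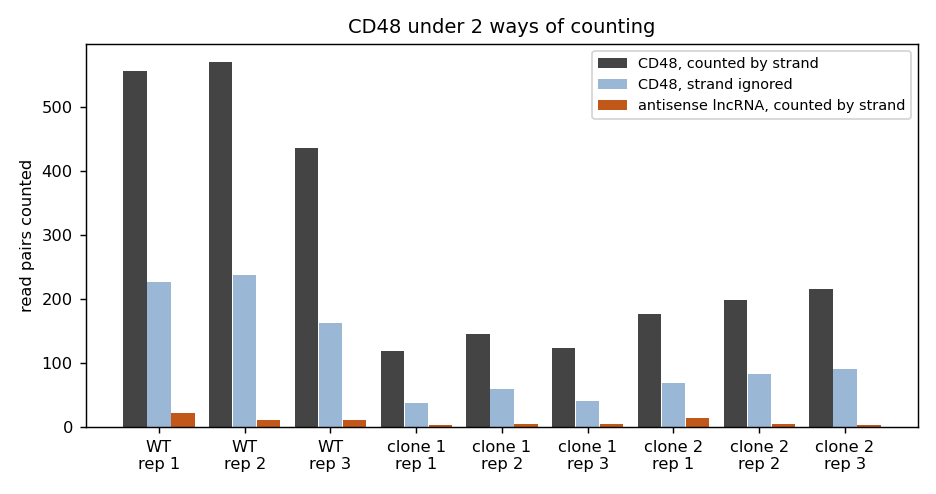
Read pairs counted for CD48 in each of the 9 libraries (vertical axis, from 0), by strand and with strand ignored, beside those of the antisense RNA. Both ways of counting place every knockout library below every WT library, and the antisense RNA has at most 22 pairs.

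T cell and NK cell markers fell in the same libraries as CD48, 4 of 7 tested T cell markers and 5 of 6 tested NK cell markers for the mean of both clones, where 18.9% of all genes fell. The 10 T cell markers summed to 394 to 423 CPM in WT, 198 to 202 in clone 1 and 218 to 231 in clone 2, with CD3D the largest. CD4, CD5, CD8A and CD8B were under 1 CPM in every library. The 9 NK cell markers summed to 234 to 249 CPM in WT, 158 to 163 in clone 1 and 181 to 189 in clone 2, with NKG7 the largest and KLRD1, NCR1, GNLY and GZMB under 1 CPM in every library. All 6 erythroid and all 7 stromal and epithelial markers were under 1 CPM in every library, as were 6 of 7 monocyte markers, and B cell markers summed to 15.9 to 17.0 CPM in WT, 9.76 to 11.6 in clone 1 and 15.8 to 16.2 in clone 2. The part of these markers in the fall of CD48 was not tested.

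CD58, the ligand of CD2 (chromosome 1, 116514534 to 116571039, minus strand), did not pass in either clone. It measured 24.8, 22.8 and 25.3 CPM in WT, 23.9, 22.9 and 23.8 CPM in clone 1 and 22.6, 22.2 and 22.7 CPM in clone 2. Clone 1 lay within the range of WT, and clone 2 lay below it. The 95% interval of the log2 fold change was -0.17 to 0.08 in clone 1 and -0.23 to 0.01 in clone 2.

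LGALS9, which encodes a secreted galectin (chromosome 17, 27629798 to 27649560, plus strand), fell in clone 1. It measured 4.20, 4.39 and 3.36 CPM in WT, 3.15, 2.76 and 2.76 CPM in clone 1 and 3.85, 3.26 and 3.34 CPM in clone 2. All clone 1 libraries were below WT, and clone 2 overlapped it. In edgeR clone 1 differed from WT by -0.47 on the log2 scale (SE 0.144, adjusted p = 0.00776) and clone 2 by -0.20 (SE 0.135, adjusted p = 0.296). For the mean of both clones it was -0.34 (adjusted p = 0.0239), a call that was lost without WT replicate 1 (adjusted p = 0.104) or WT replicate 2 (0.158), in DESeq2 (0.0929) and with the 6 knockout libraries as 1 group (0.113). LGALS9B, a close copy, had at most 3 counts in a library, and LGALS9C had 0 in all. Of the 150-base stretches of LGALS9 transcripts, 3.37% also occur in ENSG00000266728 or LGALS9DP. ENSG00000266728, on the same strand, overlaps 294 of the 5714 exonic bases of LGALS9 and had 0 counts in all libraries. Whether read pairs in the shared bases were left uncounted was not tested.

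The order of the ligands was compared as CPM per kilobase of exon. In WT it ran from NECTIN2 (48.0) through CD58 (13.6), MICB (5.69), CD48 (4.28), PVR (4.19), ULBP3 (3.89), ULBP2 (1.78), MICA (1.32) and LGALS9 (0.697) to ULBP1 (0.300). Of the neighbours in this order, only CD48 and PVR overlapped between WT libraries. NECTIN2, CD58 and MICB held the first 3 places in WT and clone 1, and LGALS9 and ULBP1 the last 2 places in all groups. CD48 had rank 4 in WT, rank 8 in clone 1 at 1.29 CPM per kb and rank 7 in clone 2 at 1.501. In clone 1, ULBP2 and MICA overlapped. In clone 2 the pairs PVR and MICB, ULBP2 and CD48, and CD48 and MICA overlapped.

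**Figure D4:**
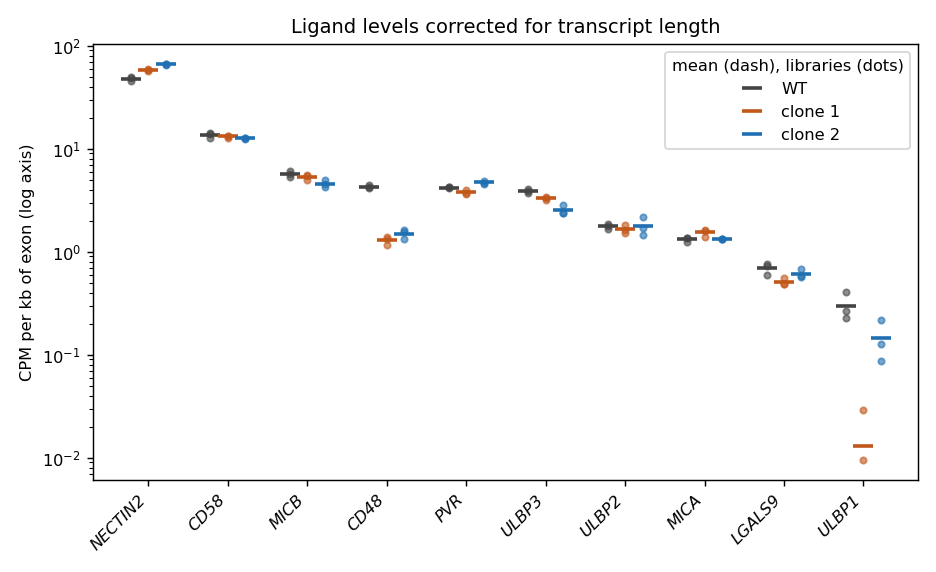
CPM per kilobase of exon of each ligand on a log axis, in the WT order, with libraries as dots and group means as dashes. The ULBP1 value of 0 in clone 1 replicate 1 cannot be drawn on a log axis. NECTIN2 is highest in every group, and CD48 drops from the middle of the order in both clones.

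The clones were also compared with each other. At an adjusted p under 0.05 in edgeR, 5 of 10 ligands differed, against 25.9% of all genes, with 3 higher (13.4%) and 2 lower (12.6%) in clone 2. ULBP1 alone also passed the fold minimum, against 2.82% of all genes, of which 1.58% were higher and 1.23% lower. ULBP1 was higher in clone 2 by 3.30 on the log2 scale (SE 0.643, adjusted p = 9.62e-05), a fitted value that rests on 4 read pairs in clone 1 and was 2.82 without clone 1 replicate 1 and 4.52 without clone 1 replicate 2. PVR was higher by 0.32 (SE 0.046, adjusted p = 7.62e-07) and NECTIN2 by 0.18 (SE 0.032, adjusted p = 2.37e-05). ULBP3 was lower by 0.38 on that scale (SE 0.091, adjusted p = 0.00121). The libraries of the clones did not overlap for PVR, NECTIN2, ULBP3, ULBP1 and MICB. They also did not overlap for MICA, CD58 and LGALS9, which did not pass. The share of all genes without such overlap was not counted. MICB was lower by 0.22 (adjusted p = 0.0319), which did not pass in DESeq2 (0.0722), without the filter on low counts (0.0641), with strand ignored (0.0519), or without clone 1 replicate 2 (0.103), clone 1 replicate 3 (0.120), clone 2 replicate 2 (0.0891) or clone 2 replicate 3 (0.179).

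Other genes that NK and T cells read on a target, or that act on these ligands, were described from lists, for the mean of both clones. Among all genes, 16.4% passed as higher and 18.9% as lower in that comparison. Of 21 other NK cell ligands, 19 were tested, 4 rose, 12 fell and 3 did not pass, with a median log2 fold change of -0.43. NCR3LG1 (B7-H6, the ligand of NKp30) measured 8.23 CPM in WT, against 3.09 in clone 1 and 3.03 in clone 2 (log2 fold change -1.43, adjusted p = 1.71e-15 in edgeR). HLA-E, which presents leader peptides to the inhibitory receptor NKG2A, went from 264.7 CPM to 153.8 and 195.6 (-0.61, adjusted p = 2.19e-22). Both changed in the same direction in the 2 clones. CADM1, the ligand of CRTAM, was at 1.12 CPM in WT and at 0.0431 and 0.139 CPM in the clones, where clone 1 was below the level of 3 counts in a library. The SLAM family receptors CD84 (-1.43) and SLAMF7 (-1.50) also passed both thresholds, from WT levels of 1.06 and 0.314 CPM, but SLAMF7 did not pass in clone 2 (adjusted p = 0.494). NECTIN1, a relative of NECTIN2, fell by 0.43 on the log2 scale (adjusted p = 3.25e-15). ICAM3, an adhesion ligand of LFA-1, fell in clone 2 (log2 fold change -0.98) and did not pass in clone 1 (-0.05, adjusted p = 0.318).

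Of 21 costimulatory and checkpoint ligands, 10 were tested, 2 rose, 6 fell and 2 did not pass, with a median log2 fold change of -0.19. TNFRSF14 (HVEM), the ligand of BTLA, measured 36.5 CPM in WT, against 12.5 in clone 1 and 12.4 in clone 2 (log2 fold change -1.55, adjusted p = 1.04e-24 in edgeR). CD86, a ligand of CD28 and CTLA4, went from 0.895 CPM to 0.206 and 0.235 (-2.06, adjusted p = 4.6e-06). HHLA2, another ligand of the B7 family, rose from 1.41 CPM to 4.66 in clone 1 and measured 1.83 in clone 2, where it did not pass (adjusted p = 0.249). TNFSF4 (OX40 ligand) rose by 0.36 on the log2 scale. CD274 (PD-L1) had a log2 fold change of -0.95 in clone 1 and of -0.16 in clone 2, where it did not pass (adjusted p = 0.449), and VSIR (VISTA) fell by 0.42 in clone 1 and rose by 0.11 in clone 2.

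All 6 death ligands and receptors passed, 3 higher and 3 lower. FAS, the receptor through which lymphocytes trigger apoptosis, measured 20.4 CPM in WT, against 6.74 in clone 1 and 6.97 in clone 2 (log2 fold change -1.57, adjusted p = 5.1e-22 in edgeR). The receptors of TRAIL moved the other way: TNFRSF10A rose from 20.7 to 54.1 and 25.0 CPM, and TNFRSF10B from 17.7 to 35.6 and 26.6 CPM. TNFSF10, which encodes TRAIL itself, fell from 106.8 to 56.5 and 70.2 CPM. Of 9 receptors for the 10 ligands, 8 were tested in these leukaemia cells, 1 rose, 6 fell and 1 did not pass. CD96, a receptor of PVR, was at 596.0 CPM in WT and fell by 0.38 on the log2 scale (adjusted p = 9.25e-14). CD226 (DNAM-1) fell by 0.69, and TIGIT by 1.08 from a WT level of 0.882 CPM, though TIGIT did not pass in clone 1 (log2 fold change -0.60, adjusted p = 0.159). HAVCR2 (TIM-3) was at 15.4 CPM in WT, 15.0 in clone 1 and 5.46 in clone 2, where it fell (log2 fold change -1.49, adjusted p = 1.12e-18).

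Of 10 shedding enzymes and their inhibitors, which can cut or protect NKG2D ligands at the cell surface, 6 were tested, 4 rose and 2 fell. ADAM9 rose from a WT level of 13.8 CPM to 29.4 in clone 1 and 32.1 in clone 2 (log2 fold change 1.16, adjusted p = 3.02e-21 in edgeR). MMP14 rose from 1.03 to 2.72 and 2.58 CPM. ADAM10 rose by 0.32 and ADAM17 by 0.19 on the log2 scale, and TIMP1, a metalloproteinase inhibitor, fell by 0.37. Among 19 regulators of NKG2D ligand genes 5 rose, 3 fell and 11 did not pass, and none passed the fold minimum. E2F2 rose in clone 1 (log2 fold change 0.92) and did not pass in clone 2 (0.10, adjusted p = 0.154). ATF4 rose by 0.25 for the mean of both clones (log2 fold change 0.29 in clone 1 and 0.22 in clone 2). RBM4, a splicing factor, fell by 0.22 for that mean (-0.35 in clone 1 and -0.10 in clone 2). The part of these regulators in the levels of the ligands was not tested.

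**Figure D5:**
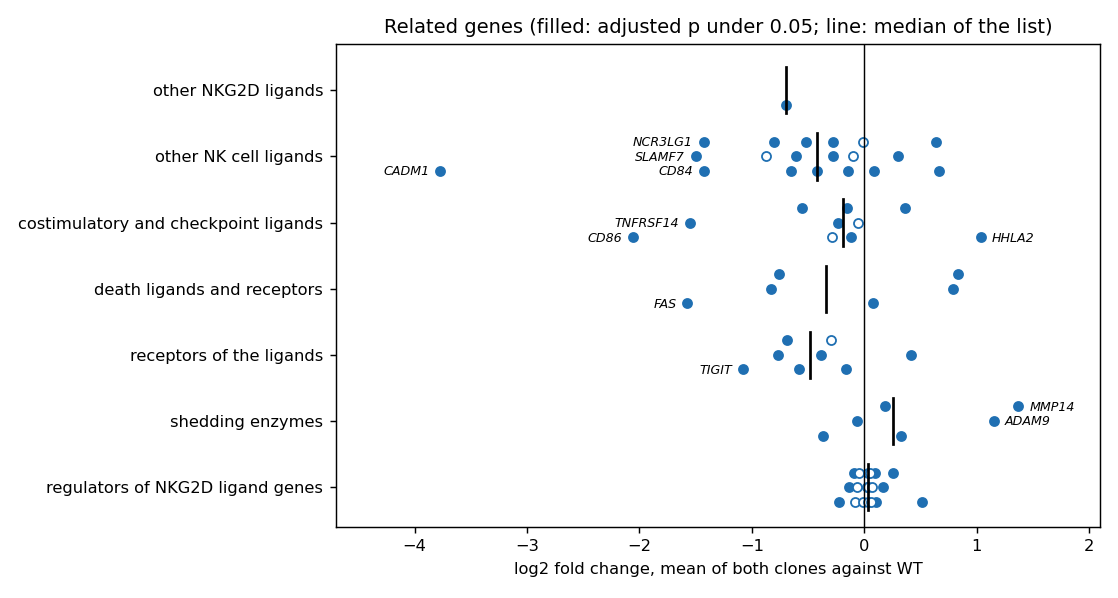
Log2 fold change of the tested genes of each list for the mean of both clones against WT (horizontal axis), filled where the adjusted p was under 0.05 and named where the fold minimum was passed too. Black lines mark list medians, and of 6 death ligands and receptors 3 lie on each side of 0.

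The 5 tested genes on each side of every ligand were examined for the mean of both clones. The genes around CD48 include the SLAM cluster on chromosome 1 and genes outside that family. Of these 10 neighbours, 2 rose and 5 fell, against 16.4% and 18.9% of all genes. CD84, SLAMF7 and the antisense RNA fell past the fold minimum, as 4.53% of all genes did. The antisense RNA did not pass in clone 2 (log2 fold change -1.14, adjusted p = 0.077 in edgeR). Among the other SLAM genes there, chosen after their values were seen, SLAMF1 rose by 0.64 on the log2 scale (adjusted p = 2.33e-05 in edgeR), LY9 fell by 0.80 (adjusted p = 5.18e-08) and CD244, which encodes the receptor 2B4 itself, fell by 0.17 (adjusted p = 3.63e-05). SLAMF6, at 0.341 CPM in WT, had a log2 fold change of -0.875 and did not pass (adjusted p = 0.134 in edgeR). SLAMF1 was the only one of these SLAM genes to rise. HLA-B, which lies near MICA and MICB, fell by 1.21 and was the only neighbour of these genes past the fold minimum. Beyond ULBP3, PPP1R14C fell by 1.27 on the log2 scale (adjusted p = 4.38e-07) and PLEKHG1 rose by 3.26 (adjusted p = 2.53e-23). The short gene ENSG00000238594 fell by 1.44 from a WT level of 0.311 CPM, but it did not pass in clone 1 (adjusted p = 0.467). In clone 2 it was at 0.0579 CPM, below the level of 3 counts in a library. Near PVR and NECTIN2 only CEACAM16-AS1 passed the fold minimum (log2 fold change -1.10). No neighbour of CD58 or LGALS9 did.

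Genes whose levels followed CD48 most closely were named by Pearson's r of log2 CPM over the 9 libraries, which share their groups and their scaling. Among 9822 protein-coding genes of at least 5 CPM, the highest values were 0.9952 for EPHA1, 0.9952 for MEGF6, 0.9946 for SMAD6, 0.9933 for THEMIS and 0.9925 for SPIRE1. EPHA1, an ephrin receptor, measured 18.1 CPM in WT, against 4.78 in clone 1 and 6.18 in clone 2, and SMAD6, an inhibitor of BMP signalling, measured 391.9, 106.3 and 126.9. THEMIS, a T cell signalling protein, went from 35.4 CPM to 0.184 and 0.625. An r above 0.95 was reached by 303 of these genes and one below -0.95 by 251.

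In the authors' deposited table, which compares both clones with WT and ignores strand, CD48, NECTIN2 and ULBP3 have an adjusted p under 0.05, and 7 ligands do not. That table gives NECTIN2 a log2 fold change of 0.37 (adjusted p = 3.943e-07) and ULBP3 one of -0.41 (adjusted p = 0.007296). For ULBP1 the authors' deposited table gives -1.91 with an adjusted p of 0.2407. With the 6 knockout libraries treated as 1 group in edgeR, the same 3 ligands passed, and ULBP1 had a log2 fold change of -1.83 (adjusted p = 0.0739).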

How the data were processed

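RNA sequencing of 9 KG-1a libraries (WT, PRMT2 knockout clone 1 and clone 2, n = 3 each) was grouped by the sample labels. Per gene, the authors deposited counts of read pairs, raw, with and without strand, and 1 table of log2 fold changes and p-values for both clones against WT. STAR, DESeq2 and GRCh38 come from the submitters' processing notes, and their versions are not given in the sources used here. The counts of the table were equal to those without strand in 9 of 9 libraries, and its 9 columns of normalized counts were not used.

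Here the strand that held 92.0% to 92.3% of stranded counts was used. Pairs not assigned to a gene (70.4% to 74.1% of all pairs) were left out of library totals. In R 4.3.3, edgeR 4.0.16 filtered genes with filterByExpr by group, scaled libraries by the trimmed mean of M-values and fitted a robust quasi-likelihood model to all 9 libraries. Each contrast had an F test, and p-values were adjusted over 20655 genes by the Benjamini-Hochberg method. Thresholds were an adjusted p under 0.05 and, as in the series text, an absolute log2 fold change of 1. Unless another tool is named, adjusted p-values come from edgeR. SE was taken as the size of the log2 fold change over the root of its F statistic, and SE and 95% intervals are approximate. The code was checked on simulated data.

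The alternatives were DESeq2 1.42.0, other scalings and filters, counts without strand, a replicate block, no robust estimation, the compared groups alone, the 6 knockout libraries as 1 group, and each library left out. Positions came from GENCODE release 44, which held 60463 of 60605 gene identifiers. Promoters came from RefSeq (GRCh38.p14), where 10 of 10 ligands matched.

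The ligands and lists were chosen with earlier results of these data known. Named were all 10 ligands, PRMT2, list genes past both thresholds for the mean of both clones and up to 3 others by smallest adjusted p, called neighbours, and the 5 genes most like the ligand with the smallest adjusted p. HSF1, KIT, the SLAM genes beside CD48, and list genes given only by name were added after their values were seen.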

Additional observations from a re-analysis of the deposited data

Results flagged for a closer look

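For 5 ligands the change against WT differed between the clones in edgeR's test of that difference (clone 2 against clone 1, log2 scale, adjusted over all genes). ULBP1 was 3.296 higher in clone 2, PVR 0.317 higher and NECTIN2 0.179 higher. The difference was -0.382 for ULBP3 and -0.221 for MICB. PVR is the ligand of these whose change had opposite directions in the 2 clones. NECTIN2, ULBP1 and ULBP3 changed the same way in both clones by different amounts.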

How the results depend on the processing

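Of 715 values of single ligands under alternatives, 679 kept their direction and their side of the threshold, 25 lost the call and 11, none of them called, reversed. The number of ligands past the adjusted p ranged over single libraries left out from 4 to 6 in clone 1, 5 to 6 in clone 2, 4 to 6 for the mean of both clones and 4 to 5 between the clones. With the fold minimum these ranges were 2 to 2, 1 to 2, 2 to 2 and 1 to 1; clone 2 had 1 without WT replicate 2, clone 2 replicate 1 or clone 2 replicate 3. A filter of 1 CPM in 3 libraries, which removes ULBP1, left 1 ligand past both thresholds in clone 1, 1 in clone 2, 1 for the mean and 0 between the clones. DESeq2 left 1 in clone 2, and fitting the compared groups alone, where ULBP1 was not tested, left 0 between the clones. With the 6 knockout libraries as 1 group, 3 ligands passed the adjusted p and 1 both thresholds, CD48. In that fit differences between the clones count as spread, and in the main fit they do not. The cause of the lower number was not tested. Reversed log2 fold changes were -0.002 (library totals alone), -0.043 (strand ignored) and -0.024 (without WT replicate 1) for MICA in clone 2. For ULBP2 in clone 2 they were -0.007 (library totals alone), -0.034 (without WT replicate 2) and -0.172 (without clone 2 replicate 1), and with the replicate block -0.003. Leaving out single libraries gave these values up to 0.034 for MICA and 0.137 for ULBP2. The rest were 0.016 for ULBP2 in the mean (without clone 2 replicate 2; lowest -0.14), -0.066 for ULBP2 between the clones (without clone 2 replicate 1, highest 0.24), and -0.007 (without clone 1 replicate 1) and -0.003 (without clone 2 replicate 3) for PVR in the mean, where the highest was 0.027. The replicate block changed no ligand's call. Deviations of libraries with the same number correlated at -0.014 to 0.012, and those of libraries with different numbers at -0.027 to 0.024. Libraries of the same number thus showed no shared deviation, but the labels do not say whether the numbers mark a batch. Depth limits ULBP1 most, with 4 counts in clone 1.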
